A study of Mus musculus with 6 samples.

Results

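Thyroid hormone signalling in the liver was followed through 8 of the 22599 gene symbols in the deposited tables. They are the receptor genes Thra and Thrb, the transporter gene Slc16a10, the plasma carrier gene Ttr, the deiodinase gene Dio1, and the target genes Klf9, Hr and Gpd2. The genes were taken by symbol, for their roles in the pathway, with earlier results of these data known. All 8 were in both tables, and all 8 passed the filter on low counts.

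RNA of mouse liver was sequenced in 6 libraries, 3 from NcoR1ΔHep livers and 3 from flox livers. The NcoR1ΔHep libraries carry the genotype label of an NcoR1 knockdown, and the name ΔHep stands for a loss in hepatocytes. The flox libraries are labelled WT and, per the growth protocol, come from NcoR1fl/fl mice, whose alleles are floxed but whole. Every title gives a time of 0 h, and every library of both groups carries a treatment label of liver ischemia-reperfusion. Whether the 0 h livers underwent surgery is not given in the sources used here, nor are the driver of the recombinase, the strain, the age and the sex. Whether the libraries stand for different mice is not stated either, and a p-value then covers only the spread among libraries.

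Thyroid hormone leaves the thyroid mainly as thyroxine, travels in plasma bound to carrier proteins such as transthyretin, and enters hepatocytes through membrane transporters. Inside the cell, deiodinases remove iodine from it and form or destroy the active hormone, triiodothyronine. The receptors TRα and TRβ, of which TRβ is the main form in liver, sit on target genes with the retinoid X receptor. Without hormone they recruit the corepressor NCoR1 together with histone deacetylase 3 and hold the target silent, and with hormone they exchange it for coactivators. The comparison of NcoR1ΔHep with flox livers asks whether genes under these receptors differ in livers whose labels give a loss or knockdown of the corepressor.

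The hexamer that a thyroid hormone receptor reads on DNA is AGGTCA, and the classical response element is a direct repeat of it with a spacer of 4 bases of any kind, here called the repeat. RefSeq windows on GRCm38.p6, each 300 bases long and ending shortly after a gene start, are used here for 5 of the 8 genes (7 windows). They were searched on both strands, and a hexamer within the repeat also counts as a hexamer. In 1 of the 7 windows the hexamer occurred, against 16.3% of all 32851 windows. The repeat occurred in 0 of the 7, against 0.0152% of all windows. The match lies in the upstream window of Thrb, on the plus strand, and begins 184 bases before the annotated start. Below, that window is set beside the windows of Dio1 and Klf9, the most abundant hormone-responsive genes among the 8, which hold no such letters. Each is written 5′ to 3′ on the strand of its gene, with the hexamer in capitals. The windows lie at chr14:17660710-17661009 on the plus strand for Thrb, chr4:107307119-107307418 on the minus strand for Dio1 and chr19:23140976-23141275 on the plus strand for Klf9.
Thrb: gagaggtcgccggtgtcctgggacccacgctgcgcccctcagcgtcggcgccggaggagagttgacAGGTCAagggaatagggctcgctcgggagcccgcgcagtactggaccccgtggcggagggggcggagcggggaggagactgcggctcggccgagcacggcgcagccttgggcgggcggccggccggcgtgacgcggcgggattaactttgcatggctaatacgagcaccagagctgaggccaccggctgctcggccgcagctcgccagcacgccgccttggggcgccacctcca
Dio1: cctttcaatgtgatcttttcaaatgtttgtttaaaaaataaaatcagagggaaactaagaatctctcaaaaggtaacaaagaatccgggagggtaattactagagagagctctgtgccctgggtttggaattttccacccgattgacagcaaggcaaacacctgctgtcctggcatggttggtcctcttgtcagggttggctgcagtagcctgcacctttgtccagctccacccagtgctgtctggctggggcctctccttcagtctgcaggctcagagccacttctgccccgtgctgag
Klf9: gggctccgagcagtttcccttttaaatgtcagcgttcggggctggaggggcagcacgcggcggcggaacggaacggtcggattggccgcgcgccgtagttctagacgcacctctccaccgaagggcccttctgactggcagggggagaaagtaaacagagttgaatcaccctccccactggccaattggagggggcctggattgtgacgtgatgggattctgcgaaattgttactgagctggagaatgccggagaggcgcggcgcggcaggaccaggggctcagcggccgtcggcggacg
These letters describe the windows only. Receptor binding was not measured in this series.

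The libraries held 36975231 to 38470468 counts each. Ncor1, the labelled target, was at 5.34, 6.63 and 4.93 FPKM in NcoR1ΔHep 1, 2 and 3, against 6.78, 6.70 and 7.72 FPKM in flox 1, 2 and 3. FPKM are counts scaled to gene length and to the library total. The edgeR log2 fold change of Ncor1 was -0.31 (SE 0.21, adjusted p = 0.931), so the difference did not pass the threshold and the genotypes rest on the labels. NcoR1ΔHep 1 stood apart in its sex-linked transcripts, with 17138 counts of Xist against 6 to 18 in the other 5 libraries. It had 12 counts of the Y-linked gene Ddx3y, against at least 2008 in each of the others. Uty, Kdm5d and Eif2s3y, also Y-linked, had 0, 2 and 6 counts there, against at least 454, 264 and 1420 in each of the others. By these transcripts NcoR1ΔHep 1 reads as female and the other 5 libraries as male, so the NcoR1ΔHep group mixes the sexes. Where NcoR1ΔHep 1 stands apart below, sex and other differences of that library cannot be told apart. Of 7 hepatocyte markers, 6 were in the table, and their summed level was 90590 to 101938 CPM (counts scaled to the library total alone) in NcoR1ΔHep and 92597 to 113941 CPM in flox. Most of that sum was albumin, Alb, at 6.56% to 8.85% of all counts. Single markers varied more: Apob ran from 144 to 604 FPKM and Cps1 from 350 to 865 FPKM, both lowest in NcoR1ΔHep 1, where Apoa1 was highest. Of the 6, 1 had a positive and 5 a negative log2 fold change.

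No gene passed the threshold of an adjusted p under 0.05 in edgeR's quasi-likelihood test, neither among the 8 nor among all 13205 genes tested (0% called). An unadjusted edgeR p under 0.05 was found in 443 genes (3.35%), of which 254 were lower (1.92% of those tested) and 189 higher (1.43%) in NcoR1ΔHep, and in 1 of the 8, Hr, which was lower. The 443 became 105 without flox 1 and 932 without NcoR1ΔHep 3. DESeq2 called 5 genes (0.0246% of those with an adjusted p) and 0 of the 8. Of the 8 genes, 4 had a positive and 4 a negative log2 fold change of NcoR1ΔHep over flox, with a median of -0.13, beside a median of 0.03 over all genes tested. With a library left out the median of the 8 ran from -0.40 (without NcoR1ΔHep 3) to -0.0078 (without NcoR1ΔHep 1). It was 0.09 under a CPM minimum, which leaves out Hr. In none of the 8 were the groups apart: the FPKM ranges of NcoR1ΔHep and flox overlapped in each, while they did not overlap in 7.56% of all genes tested. A p above the threshold does not show equal levels, so each log2 fold change is given with its 95% interval.

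The genes differed widely in level. Over the 6 libraries, Ttr was the most abundant, at 3656 to 6507 FPKM, and ranked 17 among the 13205 genes tested by mean FPKM. Dio1 followed at 66.1 to 131 FPKM, Klf9 at 18.9 to 51.8 FPKM and Slc16a10 at 9.25 to 13.6 FPKM. Gpd2 was at 4.37 to 12.5 FPKM, Thrb at 1.44 to 2.96 FPKM, Thra at 0.985 to 2.85 FPKM and Hr at 0.0220 to 0.421 FPKM. Neighbours in this order whose ranges overlapped were Slc16a10 and Gpd2, with Slc16a10 above Gpd2 in 5 of 6 libraries, and Thrb and Thra, with Thrb above Thra in 4 of 6. The other neighbours kept their order in all 6 libraries, and their ranges did not overlap.

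**Figure D1:**
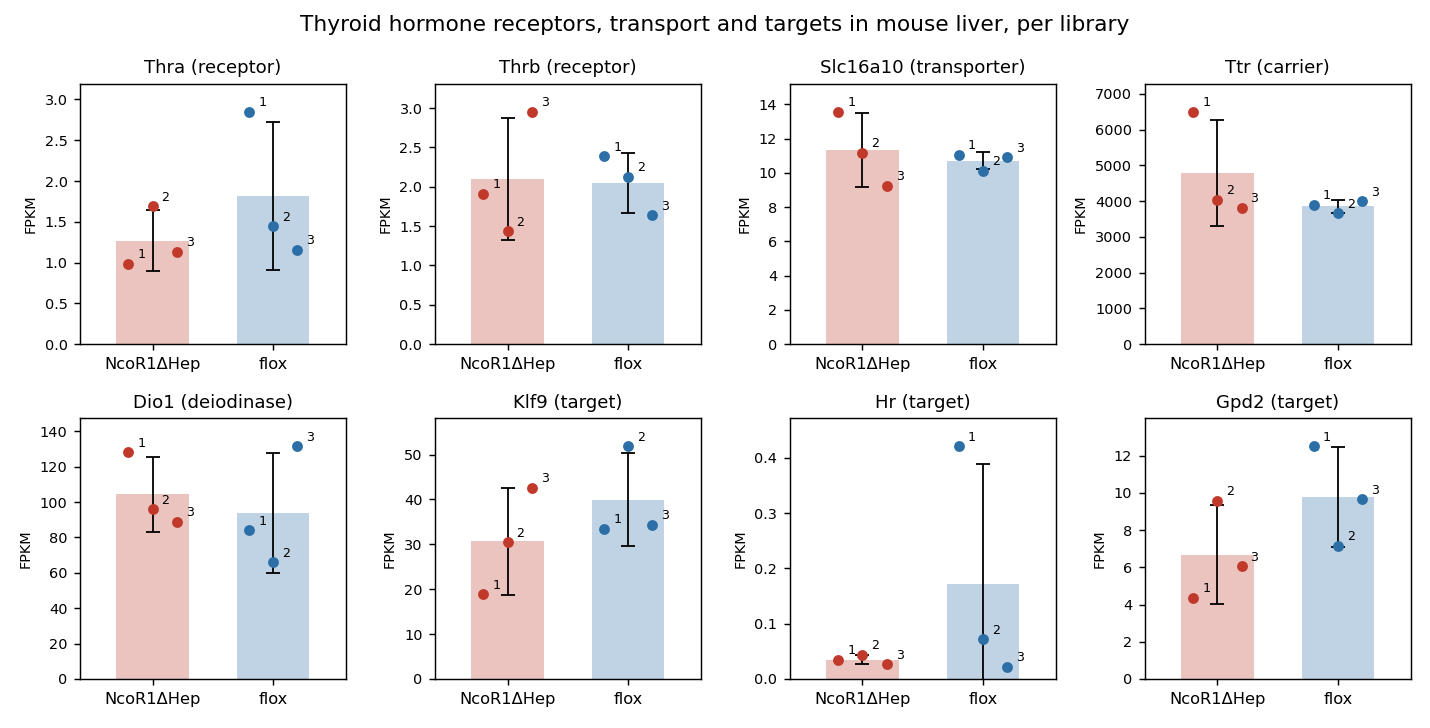
FPKM of the 8 genes in each library (points, with replicate numbers), with group means (bars) and SD (n = 3 each), NcoR1ΔHep at the left and flox at the right of each panel; every axis starts at 0, and the SD of Hr in flox runs below it. The groups overlap in every panel, and the highest point of Thra, Hr and Gpd2 is flox 1.

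Thra, which encodes TRα and a splice form that does not bind the hormone, was at 0.985, 1.69 and 1.13 FPKM in NcoR1ΔHep 1, 2 and 3, and at 2.85, 1.45 and 1.16 FPKM in flox 1, 2 and 3. Flox 1 was high, and the other flox libraries lay within the NcoR1ΔHep range. The means were 1.27 ± 0.371 FPKM in NcoR1ΔHep and 1.82 ± 0.905 FPKM in flox (SD, n = 3 each). The log2 fold change was -0.46 (SE 0.35, 95% interval -1.26 to 0.34, edgeR adjusted p = 0.931). Without flox 1 it was -0.08.

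The end of Thra lies opposite the end of Nr1d1, which encodes the clock repressor REV-ERBα. In the GENCODE M21 annotation of GRCm38 the exons of the genes, on opposite strands, share 263 bases, or 5.7% of the 4614 exonic bases of Thra. Whether strand was used in counting is not given in the sources used here, so reads of the shared stretch could belong to either gene. Nr1d1 was the more abundant, with 4426, 4288 and 1889 counts in NcoR1ΔHep and 2080, 3007 and 3488 in flox, against 235, 401 and 269 counts of Thra in NcoR1ΔHep and 689, 354 and 273 in flox. Flox 1, which was highest in Thra, was not high in Nr1d1. Gene totals do not show how reads of the shared bases were assigned, and their part in the Thra counts was not tested. The Thra counts also cannot tell the hormone-binding from the other splice form.

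Thrb, which encodes TRβ, was at 1.91, 1.44 and 2.96 FPKM in NcoR1ΔHep 1, 2 and 3, and at 2.39, 2.13 and 1.64 FPKM in flox 1, 2 and 3. All 3 flox libraries lay within the NcoR1ΔHep range. The means were 2.10 ± 0.776 FPKM in NcoR1ΔHep and 2.05 ± 0.380 FPKM in flox (SD, n = 3 each), and the log2 fold change was 0.09 (SE 0.33, 95% interval -0.66 to 0.84, edgeR adjusted p = 0.983). Its sign depended on single libraries: without NcoR1ΔHep 3 it was -0.35, and without NcoR1ΔHep 2 it was 0.32. Per length, Thrb stood to Thra in a ratio of 1.94, 0.852 and 2.61 in NcoR1ΔHep 1, 2 and 3, and of 0.837, 1.47 and 1.41 in flox 1, 2 and 3. By FPKM, Thra was thus the higher of the receptor genes in NcoR1ΔHep 2 and flox 1, and Thrb in the other 4 libraries. That order depends on the length used. The FPKM imply 14960 bases for Thrb and 6364 for Thra, against 7403 and 4614 exonic bases in GENCODE M21. In counts, Thrb was above Thra in every library, at 803 to 1650 against 235 to 689.

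Among the genes of transport and carriage, Slc16a10 encodes MCT10, a carrier of aromatic amino acids and iodothyronines across the cell membrane. It was at 13.6, 11.2 and 9.25 FPKM in NcoR1ΔHep, against 11.1, 10.1 and 10.9 FPKM in flox, so that all flox values fell within the NcoR1ΔHep range. The log2 fold change was 0.09 (SE 0.19, 95% interval -0.35 to 0.54, edgeR adjusted p = 0.959), the narrowest interval of the 8. Its SD of log2(CPM + 1) over the 6 libraries was 0.18, beside a median of 0.31 over all genes tested.

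Ttr encodes transthyretin, which hepatocytes secrete as a plasma carrier of thyroxine and of retinol-binding protein. It was at 6507, 4043 and 3821 FPKM in NcoR1ΔHep 1, 2 and 3, and at 3901, 3656 and 4003 FPKM in flox 1, 2 and 3. NcoR1ΔHep 1 was high, where Ttr took 0.858% of all counts, against 0.482% to 0.533% in the other 5 libraries. The means were 4790 ± 1491 FPKM in NcoR1ΔHep and 3853 ± 178 FPKM in flox (SD, n = 3 each). The log2 fold change was 0.32 (SE 0.28, 95% interval -0.33 to 0.96, edgeR adjusted p = 0.931), or 0.12 without NcoR1ΔHep 1.

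Dio1 encodes the type 1 deiodinase, a selenoenzyme of liver and kidney that both activates and clears iodothyronines, and is itself raised by triiodothyronine. It was at 128, 95.8 and 88.8 FPKM in NcoR1ΔHep 1, 2 and 3, and at 84.1, 66.1 and 131 FPKM in flox 1, 2 and 3. The highest and the lowest library were both flox, and the NcoR1ΔHep libraries lay between them. The means were 104 ± 21 FPKM in NcoR1ΔHep and 93.9 ± 33.8 FPKM in flox (SD, n = 3 each). The log2 fold change was 0.16 (SE 0.29, 95% interval -0.50 to 0.82, edgeR adjusted p = 0.955), and it was 0.51 without flox 3 and -0.0087 without flox 2. Thrsp, a hormone-responsive gene of fatty acid synthesis picked with its values in view, was at 1617, 1039 and 394 FPKM in NcoR1ΔHep, against 227, 136 and 1278 FPKM in flox. As for Dio1, its highest values were in NcoR1ΔHep 1 and flox 3 and its lowest in flox 2.

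The remaining genes of the 8 are targets. Klf9, a Krüppel-like transcription factor induced by thyroid hormone and by glucocorticoids, was at 18.9, 30.4 and 42.6 FPKM in NcoR1ΔHep 1, 2 and 3, and at 33.5, 51.8 and 34.4 FPKM in flox 1, 2 and 3. Flox 2 was highest and NcoR1ΔHep 1 lowest, with the groups overlapping between them. The means were 30.7 ± 11.9 FPKM in NcoR1ΔHep and 39.9 ± 10.4 FPKM in flox (SD, n = 3 each), and the log2 fold change was -0.34 (SE 0.39, 95% interval -1.24 to 0.55, edgeR adjusted p = 0.934). It was -0.04 without NcoR1ΔHep 1, and -0.04 likewise without flox 2.

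Hr encodes hairless, a nuclear receptor corepressor and histone demethylase first known as a thyroid hormone target in rat brain. It was nearly silent in these livers, with 8, 10 and 6 counts in NcoR1ΔHep and 98, 17 and 5 counts in flox, or 0.0348, 0.0437 and 0.0262 FPKM in NcoR1ΔHep and 0.421, 0.0720 and 0.0220 FPKM in flox. Flox 1 was high and flox 3 lowest of all, so the groups overlapped. The log2 fold change was -2.18 (SE 0.94, 95% interval -4.35 to -0.01, edgeR adjusted p = 0.931). Without flox 1 it was -0.50 (SE 0.76).

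Gpd2 encodes the mitochondrial glycerol-3-phosphate dehydrogenase, which thyroid hormone raises in rat liver and which passes electrons from cytosolic glycerol phosphate to the respiratory chain. It was at 4.37, 9.59 and 6.05 FPKM in NcoR1ΔHep 1, 2 and 3, and at 12.5, 7.15 and 9.65 FPKM in flox 1, 2 and 3. NcoR1ΔHep 2 lay within the flox range and the other NcoR1ΔHep libraries below it. The means were 6.67 ± 2.66 FPKM in NcoR1ΔHep and 9.77 ± 2.68 FPKM in flox (SD, n = 3 each). The log2 fold change was -0.50 (SE 0.32, 95% interval -1.24 to 0.24, edgeR adjusted p = 0.931), or -0.23 without NcoR1ΔHep 1. The exons of Gpd2 share 487 bases with the noncoding antisense gene A930012O16Rik, so some of its reads could belong to either.

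**Figure D2:**
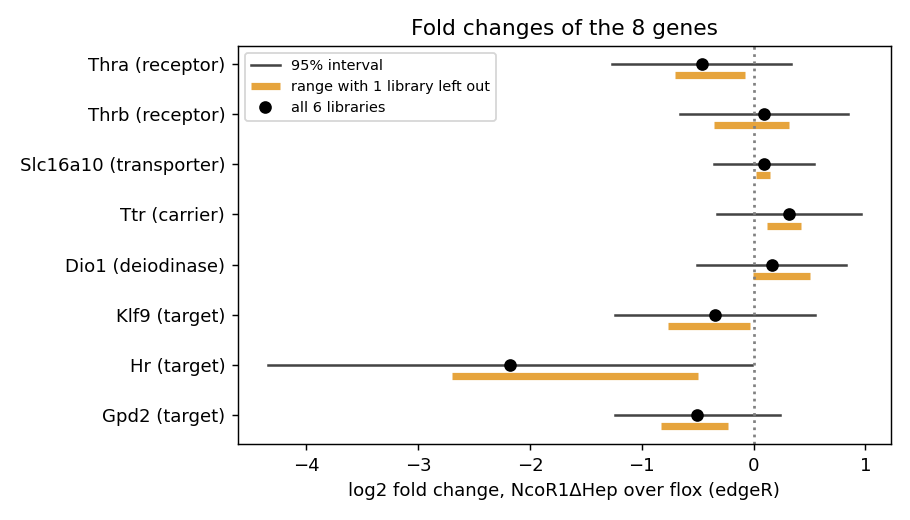
Log2 fold change of NcoR1ΔHep over flox for the 8 genes (edgeR; points), with the 95% interval (thin lines) and the range when each of the 6 libraries is left out in turn (thick lines). All intervals but that of Hr include 0, and the point of Hr, at -2.18, moves to -0.50 without flox 1.

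The target genes did not move as a unit across libraries. Klf9, Hr and Gpd2 all had negative log2 fold changes, but their highest libraries differed, with flox 2 for Klf9 and flox 1 for Hr and Gpd2. In NcoR1ΔHep 1, Klf9 and Gpd2 were at their lowest, with deviations of -0.83 and -0.81 on the log2(CPM + 1) scale when each gene is centred over the 6 libraries, while Dio1 and Ttr stood at 0.41 and 0.62. In flox 1, Thra, Hr and Gpd2 were at their highest, at 0.90, 1.28 and 0.67 on the same scale, while Dio1 stood at -0.19.

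Markers of other liver cells shared some of their high libraries with these genes, but not all. The summed level of 8 sinusoidal endothelial markers was 205, 115 and 76.5 CPM in NcoR1ΔHep 1, 2 and 3, and 365, 123 and 179 CPM in flox 1, 2 and 3. Each of the 8 was highest in flox 1, the library highest in Thra, Hr and Gpd2. Their sum was next highest in NcoR1ΔHep 1, where Thra and Gpd2 were at their lowest. None of these markers was at 0 in any library. The 7 Kupffer cell markers summed to 256, 426 and 165 CPM in NcoR1ΔHep and to 432, 273 and 408 CPM in flox, and none was at 0 there either. Gpd2 and the sum of these markers shared their 3 highest libraries, flox 1, flox 3 and NcoR1ΔHep 2. Of the single markers, Adgre1 and Timd4 did not, and were higher in flox 2 than in flox 3. The part of other cells in the levels of Thra, Hr and Gpd2 was not tested, and in bulk tissue fewer cells of a type and less RNA per cell cannot be told apart.

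**Figure D3:**
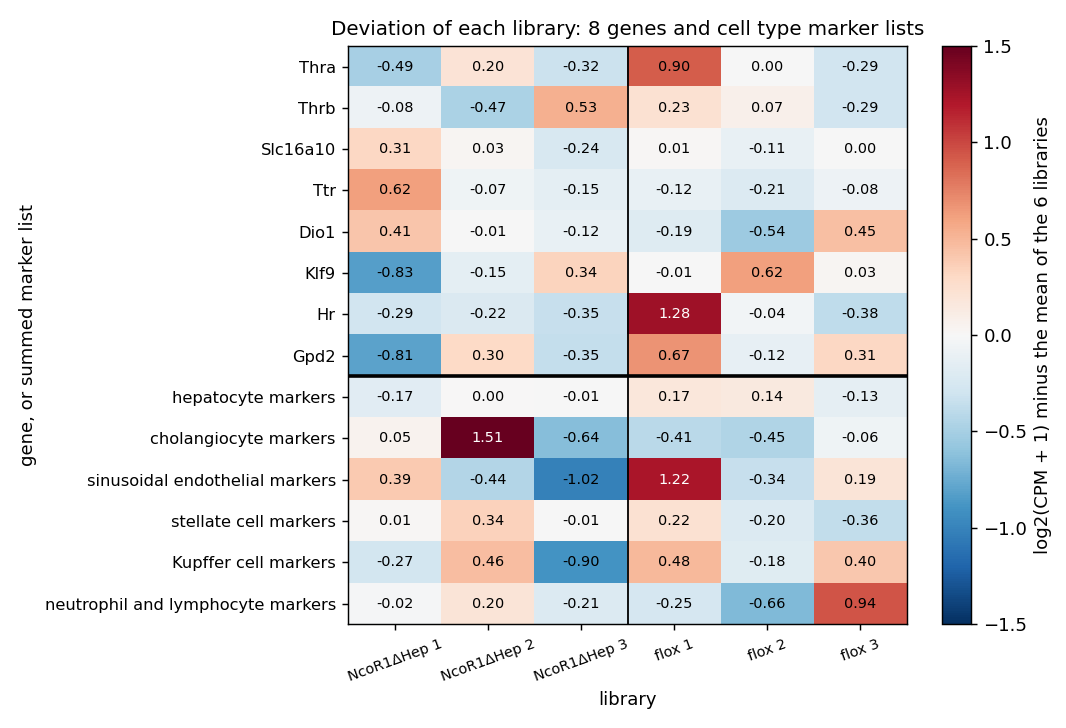
Deviation of each library (columns, NcoR1ΔHep at the left and flox at the right) from the mean of the 6, in log2(CPM + 1), for the 8 genes (upper rows) and for summed cell type marker lists (lower rows). In flox 1, Thra, Hr and Gpd2 are at 0.90, 1.28 and 0.67 and the sinusoidal endothelial markers at 1.22. In NcoR1ΔHep 1, Thra and Gpd2 are at -0.49 and -0.81 and the same markers at 0.39.

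The genes with profiles most like those of Hr, Gpd2 and Thra, the 3 of the 8 that varied most over the 6 libraries, were found by the root-mean-square difference of centred log2(CPM + 1) profiles over 6 libraries. This is a description of shared libraries and carries no test. For Thra they were Lama2, a laminin chain (0.10), Anxa5, annexin A5 (0.11), and Thbs2, a thrombospondin (0.12), against a median difference of 0.51 over 11450 genes. Lama2 was at 0.0808, 0.158 and 0.0878 FPKM in NcoR1ΔHep, against 0.363, 0.140 and 0.130 FPKM in flox, with flox 1 high as in Thra. For Gpd2 they were Slc11a2, a divalent metal transporter (0.036), Lgals3bp, a secreted galectin-binding protein (0.071), and Tspan9, a tetraspanin (0.081). Slc11a2 was at 1.71, 3.66 and 2.24 FPKM in NcoR1ΔHep, against 4.78, 2.70 and 3.58 FPKM in flox, highest in flox 1 and lowest in NcoR1ΔHep 1 as in Gpd2. For Hr they were Nes, the intermediate filament nestin (0.088), Pakap (0.15) and Trpm4, a cation channel (0.15). On this scale the few counts of Hr, 0.633 CPM in the mean, are compressed.

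The question whether the rest of the hormone pathway differed was put to 51 other genes in 4 lists. Of these, 49 were tested and 0 passed the adjusted edgeR threshold in either direction. An unadjusted edgeR p under 0.05 was found in 3 of them, beside 3.35% of all genes tested, and the 3 were targets.

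Of 13 further transport and carriage genes, 5 had a positive and 8 a negative log2 fold change, with a median of -0.07. Slco1a4, an organic anion transporter, had a log2 fold change of 0.93 (SE 0.52), or 0.23 (SE 0.42) without NcoR1ΔHep 1, with 45.1 FPKM in NcoR1ΔHep 1, 9.71 and 17.5 FPKM in NcoR1ΔHep 2 and 3, and 12.6, 16.7 and 8.12 FPKM in flox. Serpina7, the thyroxine-binding globulin, picked with its values in view, was at 6.77, 18.4 and 24.5 FPKM in NcoR1ΔHep, against 37.1, 34.6 and 18.3 FPKM in flox, with overlap.

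Among genes of hormone metabolism, the other deiodinases were almost unread. Dio2, which makes active hormone in brain and brown fat, had 1 count in NcoR1ΔHep 3 and 0 in the other 5 libraries, which allows up to 3 counts in each. Dio3, which inactivates the hormone, had 7, 1 and 0 counts in NcoR1ΔHep and 2, 2 and 0 in flox. Neither passed the filter on low counts, so Dio1 carried nearly all deiodinase reads in these livers. Sult1a1, a sulfotransferase, was at 113, 35.9 and 57.3 FPKM in NcoR1ΔHep, against 52.3, 49.7 and 39.1 FPKM in flox (log2 fold change 0.55, SE 0.38). Without NcoR1ΔHep 1 its log2 fold change was 0.10 (SE 0.30). Ugt1a1, a glucuronosyltransferase, was at 8.84, 34.1 and 36.4 FPKM in NcoR1ΔHep, against 68.5, 46.0 and 38.3 FPKM in flox (-0.86, SE 0.51), or -0.41 (SE 0.26) without NcoR1ΔHep 1. Its groups did not overlap in FPKM but did in TMM-scaled CPM, and it shares its last exons with other Ugt1a genes, so its level is uncertain. The third gene tested, Secisbp2, which is needed to read selenocysteine codons, had 0.21 (SE 0.24).

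Of 18 receptor partners and coregulators, 9 had a positive and 9 a negative log2 fold change, with a median of 0.06. Gps2, a subunit of the NCoR1 complex, was at 8.2, 4.29 and 3.01 FPKM in NcoR1ΔHep, against 3.33, 2.88 and 3.80 FPKM in flox (log2 fold change 0.62, SE 0.34, edgeR adjusted p = 0.931). Without NcoR1ΔHep 1 it was 0.21 (SE 0.24). Crebbp, a histone acetyltransferase and coactivator, was at 2.09, 1.42 and 1.35 FPKM in NcoR1ΔHep, against 1.33, 1.20 and 1.33 FPKM in flox (0.34, SE 0.21), or 0.20 (SE 0.19) without NcoR1ΔHep 1. In FPKM the groups did not overlap in 4 of the 18, beside 7.56% of all genes tested, with Crebbp higher and Ncor1, Rxra and Ncoa1 lower in NcoR1ΔHep. With TMM-scaled CPM, where 8.82% of all genes tested did not overlap, only Crebbp remained of these. Rxra, the main retinoid X receptor of liver and partner of TRβ, was at 36.1, 51.9 and 39.4 FPKM in NcoR1ΔHep, against 56.2, 52.6 and 58.0 FPKM in flox.

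Of 15 further hormone targets, 10 had a positive and 5 a negative log2 fold change, with a median of 0.31, beside 53.5% positive and a median of 0.03 over all genes tested. With a library left out the median ran from 0.14 (without NcoR1ΔHep 2) to 0.53 (without flox 3), and it was 0.07 without NcoR1ΔHep 1 and flox 1 together. Gadd45a, a growth arrest and stress gene, was at 8.0, 12.6 and 7.14 FPKM in NcoR1ΔHep, against 2.60, 2.59 and 7.0 FPKM in flox. The groups did not overlap, though flox 3 lay just under the lowest NcoR1ΔHep library (log2 fold change 1.19, SE 0.45, edgeR adjusted p = 0.931). With a library left out, the log2 fold change of Gadd45a ran from 0.91 (without NcoR1ΔHep 2) to 1.86 (without flox 3). Its unadjusted edgeR p was above 0.05 without NcoR1ΔHep 2, without flox 1 and without flox 2. Idh3a, a subunit of the mitochondrial isocitrate dehydrogenase, was at 22.5, 17.2 and 21.8 FPKM in NcoR1ΔHep, against 16.8, 12.6 and 15.3 FPKM in flox (0.49, SE 0.21, edgeR adjusted p = 0.931), also without overlap. With a library left out, its log2 fold change ran from 0.36 to 0.61, and its unadjusted edgeR p was under 0.05 only without NcoR1ΔHep 2. The third gene with an unadjusted p under 0.05 was Cyp7a1, which starts the conversion of cholesterol to bile acids (1.32, SE 0.57). It was at 30.2, 31.3 and 20.6 FPKM in NcoR1ΔHep, against 4.09, 6.97 and 21.5 FPKM in flox. Its groups overlapped in FPKM but not in TMM-scaled CPM. The 3 had positive signs, as had 10 of the 15, while Klf9, Hr and Gpd2 had negative ones, as had 5 of the 15.

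**Figure D4:**
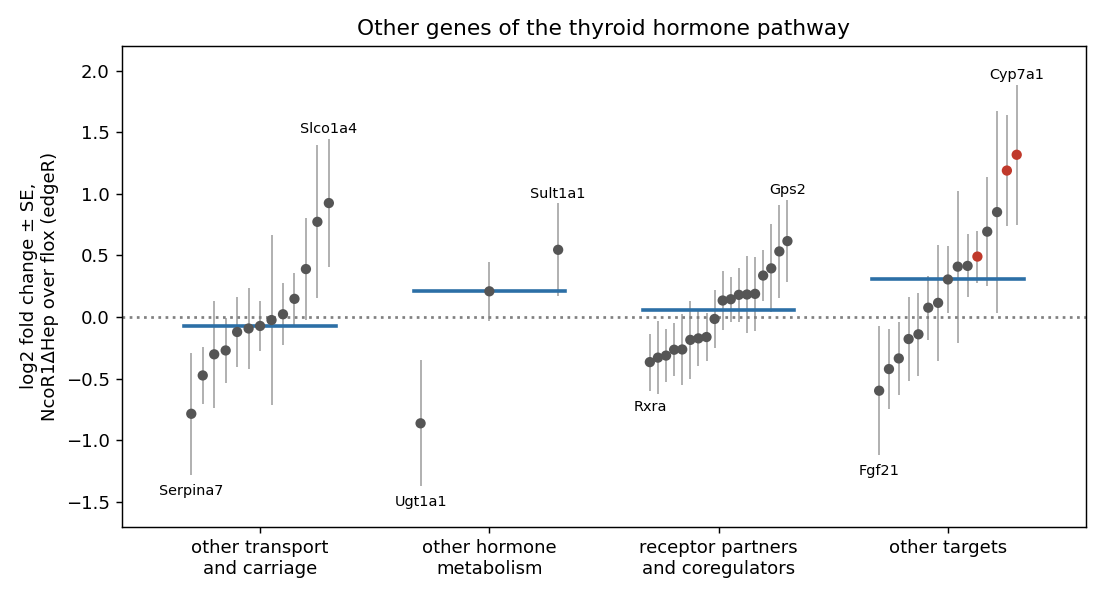
Log2 fold change of NcoR1ΔHep over flox (edgeR; points, with SE as bars) for the 49 tested genes of 4 other pathway lists, sorted within each list, with list medians as horizontal lines and points with an unadjusted p under 0.05 in red. The lists scatter around 0, with medians of -0.07, 0.21, 0.06 and 0.31, and the red points are the targets Cyp7a1, Gadd45a and Idh3a.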

How the data were processed

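Both tables hold 22599 gene symbols in 6 libraries. The authors deposited whole-number read counts per gene, without normalization. The authors also deposited FPKM values, which follow from the counts, a length per gene and the library total: the implied length came out whole, within 0.01, in 99.99% of 12656 well-covered genes. GRCm38, mm10 and hg38 are listed as builds, with no role, per the submitters' processing notes. The labels' protocols name a SMARTer mRNA library kit. The sources used here give no aligner, counter or strand setting. No rows lacked a gene name.

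Genes were kept with filterByExpr (minimum count 10, minimum total 15), which left 13205 genes. NcoR1ΔHep was compared with flox by edgeR 4.0.16 (R 4.3.3) with TMM factors and the quasi-likelihood test, two-sided, with Benjamini-Hochberg adjustment over all genes and a threshold of 0.05. Standard errors come from the F statistic. DESeq2 1.42.0 and limma 3.58.1 served as alternatives. Hr (5 to 98 counts per library), Dio2 and Dio3 rest on few reads. The scripts were tested on simulated counts, 3 libraries against 3, where edgeR called 7% of the 2-fold and 75% of the 4-fold changes put in. These counts were drawn independently for each gene, with a spread that followed level alone. The shares need not hold for the real libraries. Replicates differed by far more than sampling noise, so each counted separately.

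The 8 genes and all lists were chosen with earlier results of these data known. Besides the 8, Ncor1, Nr1d1, Dbp and the sex-linked genes, the text names the 2 genes of each pathway list with the smallest edgeR p (1 of them is not reported here) and the 3 nearest profiles of the most variable genes (mean CPM of at least 1). Thrsp, Serpina7, Rxra, Ncoa1, Secisbp2, Cyp7a1, Dio2, Dio3, Sgk1, Tat, Arntl and the single cell type markers were chosen after their values were seen, most as members of a small count.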

Additional observations from a re-analysis of the deposited data

How the results depend on the processing

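No alternative called any of the 8 genes or of the other pathway genes. The number of genes past the threshold was 0 in edgeR with RLE factors, total counts only, no filter on counts, a CPM minimum of 1 in at least 3 libraries, each library left out in turn, and limma on FPKM, and 5 with DESeq2. With the replicate block it was also 0 (175 genes with an unadjusted p under 0.05, against 443), and no call changed. The labels do not say that replicate numbers mark a shared day or litter, and deviations of same-numbered libraries correlated at 0.025, -0.38 and -0.52, so the numbers were not taken as pairs. Of 125 alternative values of the 8 genes, 118 kept their sign. Thrb was -0.0092 with limma on log2(FPKM + 0.1), and ran from -0.35 to 0.32 with a library left out. Dio1 ran from -0.0087 to 0.51. Without both NcoR1ΔHep 1 and flox 1, an alternative chosen after seeing the data, Thra was 0.11, Slc16a10 -0.029 and Dio1 -0.063. The causes were not tested. Hr, with 5 to 17 counts in 5 libraries and 98 in flox 1, has no value under the CPM filter or the FPKM filter. The median of the 8 genes was 0.09 under the CPM filter, and ran from -0.40 to -0.0078 with a library left out.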

Other observations

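Klf9 is also known as a gene that glucocorticoids induce and that follows the clock. Of 6 glucocorticoid targets tested, 6 had a positive log2 fold change, with a median of 0.71, and 0 passed the adjusted edgeR threshold. Over all genes tested, 53.5% were positive and the median was 0.03. Sgk1, a serum- and glucocorticoid-regulated kinase, was at 7.35, 6.63 and 11 FPKM in NcoR1ΔHep, against 4.15, 3.61 and 5.44 FPKM in flox (0.96, SE 0.30). Tat, tyrosine aminotransferase, was at 436, 326 and 413 FPKM in NcoR1ΔHep, against 217, 205 and 291 FPKM in flox (0.74, SE 0.27). In these 2 of the 6 the groups did not overlap, beside 7.56% of all genes tested, and in the other 4, Fkbp5, Tsc22d3, Per1 and Zbtb16, they did, as in Klf9. Klf9 had a negative log2 fold change. Of 14 clock genes tested, 11 had a positive log2 fold change (median 0.55), beside 53.5% of all genes tested. In edgeR 0 of the 14 passed the adjusted threshold, and the groups overlapped in each. Per1 is in both the glucocorticoid and the clock list, so these counts are not separate. The activator gene Arntl (BMAL1) was 1 of 3 with a negative sign (-3.23, SE 0.84, edgeR adjusted p = 0.931, DESeq2 adjusted p = 0.0317). It was at 0.0305, 0.109 and 0.0709 FPKM in NcoR1ΔHep, against 1.29, 0.702 and 0.0983 FPKM in flox, with overlap. Dbp, a clock output gene, was at 92.6, 41.9 and 37.6 FPKM in NcoR1ΔHep, against 0.948, 3.76 and 47.2 FPKM in flox. Its lowest libraries, flox 1 and flox 2, held Klf9 at 33.5 and 51.8 FPKM.

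The other marker lists showed these summed levels. Cholangiocyte markers (5 genes) ran from 37.6 to 170 CPM in NcoR1ΔHep, with the highest value in NcoR1ΔHep 2, and from 43.0 to 56.6 CPM in flox. That highest value was nearly all Spp1, with 6126 counts in NcoR1ΔHep 2, against 64 of Krt19, 4 of Krt7, 80 of Epcam and 72 of Sox9. Krt7 and Epcam were highest in NcoR1ΔHep 1 and Sox9 in flox 1, so the sum does not show more cholangiocytes in NcoR1ΔHep 2. Stellate cell markers (7 genes) ran from 364 to 466 CPM in NcoR1ΔHep and from 285 to 429 CPM in flox. Neutrophil and lymphocyte markers (8 genes) ran from 4.98 to 6.94 CPM in NcoR1ΔHep and from 3.38 to 12.3 CPM in flox.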
